A study of Mus musculus with 6 samples.

Results

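The genes described here encode the core proteins of the spliceosome and the SR proteins, measured by RNA sequencing in P19 cells, a mouse embryonal carcinoma line. Members were all genes whose name begins with Snrnp, Snrp, Sf3a, Sf3b, Prpf, U2af or Srsf, or is Lsm followed by a number, leaving out Snrpn and pseudogenes. The rule used names alone and no measured value, and it found 67 of the 34745 genes in the table, with 1 pseudogene left out. All 67 passed the filter on low counts, which kept 13836 genes in total.

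The series holds 6 libraries: 3 of P19 cells given the peptide PDTLN1 and 3 of untreated P19 cells, all grown in the same serum-containing medium. The titles of the treated samples and their columns carry a code, P50, whose meaning no label gives. The labels name neither a dose, a duration nor a vehicle, and give no separate cultures for the libraries of a group, so p-values reflect only how far these libraries differ among themselves, which may be technical. The labels carry the same treatment text for both groups, and the groups were told apart by the treatment entry of each sample. Library totals were 10381307, 11515237 and 11663081 counts with PDTLN1 and 10450134, 10692451 and 11177756 counts in control cells. The members took 1.29% to 1.33% of the counts in every library.

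The labels' RNA protocol speaks of retinas, so marker genes were checked. All 10 pluripotency markers had counts, and 8 of them passed the filter on low counts. All 8 fibroblast and all 8 neuron markers had counts too, and 7 and 8 of them passed that filter. The summed level of the pluripotency markers was 3212 to 3350 CPM with PDTLN1 and 3354 to 3501 CPM in control cells (CPM, counts scaled by TMM-adjusted library size). Of 16 retina markers, Crx, Arr3, Opn1sw and Opn1mw had 0 counts in every library, and the 16 summed to 8.42 to 12.8 CPM with PDTLN1 and 10.6 to 12.8 CPM in control cells. The 8 fibroblast markers summed to 66.9 to 81.4 CPM with PDTLN1 and 86.0 to 89.98 CPM in control cells, and the 8 neuron markers to 178 to 213 CPM with PDTLN1 and 206 to 239.6 CPM in control cells. Blood markers summed to 11.6 to 17.2 CPM with PDTLN1 and 12.9 to 17.7 CPM in control cells, with Cd3e at 0 in every library. The pluripotency and fibroblast sums did not overlap between the groups, and their part in the values given here was not tested.

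The spliceosome removes introns from pre-mRNA. It is built anew on each intron from small nuclear ribonucleoproteins (snRNPs), particles of a small nuclear RNA with a ring of Sm or LSm proteins and further proteins of their own: U1 recognises the 5′ splice site, U2 the branch point, and the U4/U6.U5 tri-snRNP brings the parts of the catalytic centre, while U11 and U12 do the work of U1 and U2 on a rare class of introns. SR proteins bind exons through RNA recognition motifs and recruit the core through domains rich in arginine and serine. Dividing and pluripotent cells express this machinery strongly.

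Measured per kilobase of merged exons, a scale on which genes can be compared, the members were among the well expressed genes of P19 cells. Of the 67, 62 lay above the median level of 7.95 CPM per kilobase (here on plain library totals), taken over 12002 genes with at least 200 counts, and 25 lay above the 90th percentile of 41.3. The highest was Prpf8, the U5 scaffold that holds the catalytic centre, at 223 ± 8.63 with PDTLN1 and 220.4 ± 9.36 in control cells (SD, n = 3 each). Next came Srsf2, an SR protein that binds exonic enhancers, at 182 ± 15.7 with PDTLN1 and 186 ± 20.97 in control cells, and Snrpb, which encodes the Sm proteins B and B′, at 142 ± 9.47 with PDTLN1 and 148 ± 4.76 in control cells. Each of these means lay further from the next than their SDs together in both groups. Further down, neighbours came closer: with PDTLN1, U2af2 and Snrnp200 stood at 79.7 ± 2.01 and 79.5 ± 2.49 and did not differ beyond their spread.

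By role, the median levels on this scale were 52.7 for the 7 Sm ring genes, 51.5 for 11 U2 genes, 49.1 for 11 SR genes, 29.3 for 10 tri-snRNP genes, 28.6 for 3 genes of the catalytic stage and the kinase Prpf4b, 26.8 for 5 LSm genes outside the ring, 23.4 for 6 U1 genes, 23.0 for 3 genes that recognise the 3′ splice site, 14.7 for 8 LSm ring genes and 9.97 for 3 genes of the minor U11/U12 snRNP. Levels differed widely within each role: the SR genes ran from 0.269 for Srsf12 to 184 for Srsf2, and the LSm ring genes from 6.69 for Lsm1 to 64.5 for Lsm4. Neighbouring roles in this order therefore overlapped gene by gene.

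The order of genes and of roles depended on the length used. The FPKM deposited by the authors imply for each gene a length of their own, which was longer than the merged exons in 53 of the 67 members and longer than the whole gene in 8. U2af1l4, a short relative of U2af1, was the extreme: the implied length was 14578 bases for a gene that spans 4660 bases. Its mean over all libraries was 1.06 FPKM against 9.35 per kilobase of merged exons. The merged exons are those of GENCODE M21, which ends this gene at base 30565365, where the deposited position ends at 30567960. The 9.35 therefore rests on another gene model than the counts, and the part of this mismatch was not tested. In some other members the implied length was shorter than the merged exons. For Snrnp48 it was 2227 against 10129 bases, with means of 26.6 FPKM and 5.85 per kilobase of merged exons. On the authors' FPKM the highest member was Sf3b2 at a mean of 217 over all libraries, which was the fourth per merged exon, and Prpf8 was second at 194. Role medians in FPKM were 61.4 for the 3′ splice site genes, 52.7 for the Sm ring and 47.3 for U2 genes. They were 25.3 for SR genes, 11.8 for the LSm ring and 11.4 for the minor U11/U12 snRNP. Comparisons between groups within a gene do not use its length.

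**Figure D1:**
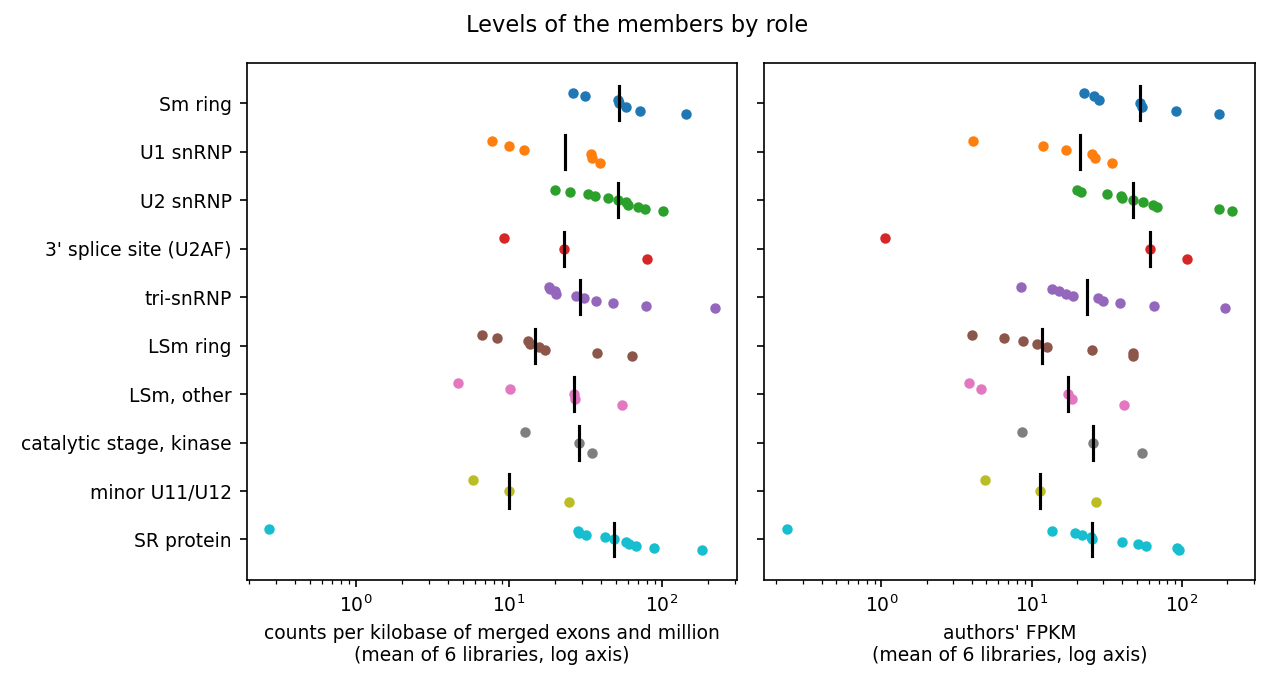
Level of each of the 67 members by role (points, mean of all 6 libraries; black bars, median of the role; log axes), in CPM per kilobase of merged exons on the left and in the authors' FPKM on the right. Genes within a role spread widely, from 0.269 for Srsf12 to 184 for Srsf2 among the SR genes on the left, and the lowest 3′ splice site gene, U2af1l4, lies at 9.35 on the left and at 1.06 on the right.

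The comparison of PDTLN1 with control cells asked which transcripts the peptide changes. No member passed: of 67, edgeR's quasi-likelihood test called 0 lower and 0 higher at an adjusted p of 0.05, where 0% of the 13836 genes tested were called lower and 0.0217% higher, 3 genes in all. DESeq2 also called 0 members, where it called 0.047% of 21266 genes. It likewise had 1 member at an unadjusted p of 0.05, beside 1.83% of its genes. At an unadjusted p of 0.05, 1 member was lower (Snrnp25) and 0 were higher, 1.49% of the members, beside 1.69% of all genes lower and 2.3% higher. The libraries of the groups did not overlap for 3 members with lower and 3 with higher values in PDTLN1 cells, 8.96% of the members, where 4.98% of all genes had lower and 4.81% had higher values without overlap. These shares were near or under the background. Log2 fold changes of PDTLN1 over control were below 0 for 32 members and above 0 for 35, with a median of 0.0048 beside -0.00087 over all genes tested. The split depended on the libraries: it was 26 below and 41 above, with a median of 0.025, without the libraries numbered 1, and 42 below and 25 above, with a median of -0.015, with the first principal component of all genes as a covariate. The median was also below 0 without control 2 (-0.016), control 3 (-0.0069) or PDTLN1 2 (-0.013).

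For most members the interval of the fold change between these libraries was narrow. It covers only their spread, which may be technical, so it does not bound the effect of the peptide in separate cultures. The 95% interval of the fold change lay inside 1.5-fold in either direction for 60 of 67 members (89.6%), beside 69.9% of all genes tested, and inside 1.2-fold for 40 members (59.7%), beside 23.9% of all genes. The standard error of a log2 fold change had a median of 0.078 over members and 0.13 over all genes. The 7 members whose intervals reached past 1.5-fold were Snrnp25, Snrnp35, Lsm3, Lsm10, Snrpd1, Prpf38b and Srsf12. That of Snrnp25 (-0.70 to -0.27 in log2, standard error 0.096) did so by its position rather than its width. Lsm5 had a wider interval (-0.34 to 0.57, standard error 0.20) that stayed inside. The median level was 26.1 FPKM over members and 5.09 FPKM over all genes tested, and the part of the level in the narrow intervals was not tested.

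**Figure D2:**
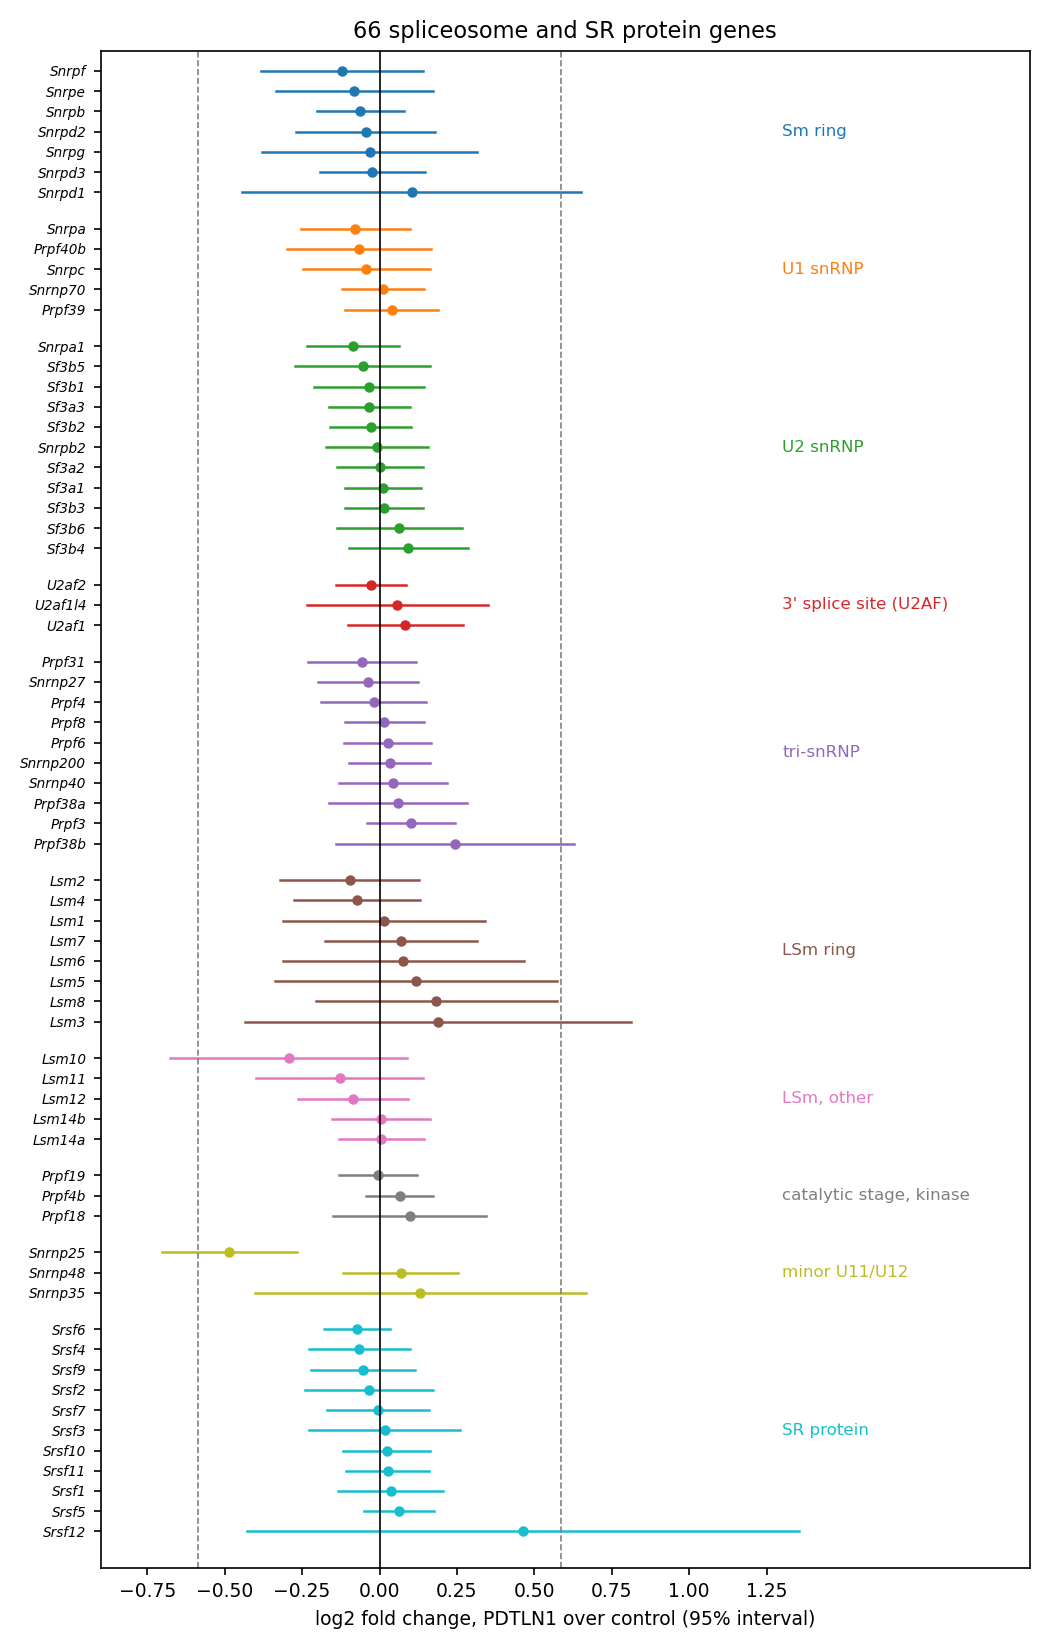
Log2 fold change of PDTLN1 over control for 66 of the 67 members with its 95% interval from edgeR, grouped by role, with lines at 0 and at 1.5-fold. Snrnp25, at -0.49, is the 1 member whose interval does not reach 0, and its adjusted p of 0.740 did not pass.

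The member with the smallest p was Snrnp25 (ENSMUSG00000040767), which encodes the 25-kilodalton protein of the U11/U12 particle of the minor spliceosome. It lies on the plus strand at chr11:32205415-32208984 of GRCm38, and none of its exon bases overlap an exon of another gene in GENCODE M21. It had 21, 20.9 and 22.3 CPM in the 3 PDTLN1 libraries, against 30.7, 30.8 and 28.5 CPM in the control libraries, from 217, 241 and 261 counts with PDTLN1 and 320, 328 and 318 counts in control cells. Every PDTLN1 library lay under every control library, with means of 21.4 ± 0.763 CPM with PDTLN1 and 29.99 ± 1.29 CPM in control cells (SD, n = 3 each). The log2 fold change was -0.49 with a standard error of 0.096 and a 95% interval of -0.70 to -0.27. Its edgeR p was 0.000688 before adjustment and 0.740 after, so it did not pass. Over the alternatives the adjusted p ran from 0.1199 to 1.00 and the log2 fold change from -0.52 to -0.46.

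The promoter of Snrnp25 is shown since it is the member with the smallest p, although it did not pass. The window, from RefSeq on GRCm38.p6, is chr11:32205165-32205444 on the plus strand, from 250 bases before the start to 30 after it. Capitals mark matches to the NFY box (CCAAT), the NRF1 site (TGCGCANGC), the ETS site (CCGGAAG), the YY1 site (AANATGGCG), the E-box CACGTG and the CRE TGACGTCA, searched on both strands.
Snrnp25: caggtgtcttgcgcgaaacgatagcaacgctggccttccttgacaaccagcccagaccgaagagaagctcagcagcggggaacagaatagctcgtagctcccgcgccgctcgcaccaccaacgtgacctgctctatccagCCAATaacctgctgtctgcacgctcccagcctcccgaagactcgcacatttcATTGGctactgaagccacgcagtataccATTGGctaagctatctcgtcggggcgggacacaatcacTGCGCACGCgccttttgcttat
Counting the first transcribed base as 1, with no base 0, it holds NFY boxes at -110, -58 and -30 and an NRF1 site at 9. An SP1 site (GGGCGG), which is not in capitals, stands at -9.

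None of the minor spliceosome genes passed, Snrnp25 included. Snrnp35, the U11 protein that resembles the U1 protein Snrnp70, had 15.5, 15.7 and 11.02 CPM with PDTLN1 and 8.64, 15.8 and 14.0 CPM in control cells, and the groups overlapped. Its log2 fold change of 0.13, with an interval of -0.40 to 0.67, turned to -0.16 when the libraries numbered 1 were left out. Snrnp48, the U11/U12 protein that meets the 5′ splice site, had 61.5, 59.7 and 61.2 CPM with PDTLN1 and 62.7, 53.7 and 57.5 CPM in control cells, a log2 fold change of 0.07 (-0.12 to 0.25). Of 9 further minor spliceosome proteins tested, 0 were called, and their median log2 fold change was 0.02. Among them Scnm1, a factor needed at minor introns, averaged 18.9 ± 2.47 CPM with PDTLN1 and 22.1 ± 1.96 CPM in control cells, a log2 fold change of -0.23 (edgeR adjusted p 0.989). Armc7 averaged 8.31 ± 0.778 CPM with PDTLN1 and 7.27 ± 0.802 CPM in control cells, a log2 fold change of 0.19 at the same adjusted p.

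Among the Sm ring genes, whose proteins form the ring around U1, U2, U4 and U5 RNA, 6 of 7 had log2 fold changes below 0, with a median of -0.04, and the groups overlapped for all 7. Snrpd1 varied most. It had 116, 171 and 171 CPM with PDTLN1, against 180, 135 and 112 CPM in control cells. The low libraries were PDTLN1 1 and control 3, with control 2 between, and the high ones PDTLN1 2, PDTLN1 3 and control 1. Its log2 fold change was 0.10 with an interval of -0.45 to 0.65. Snrpf, which carries exon bases shared with Ccdc38 on the other strand over 65.9% of its length, had 37.1, 45.6 and 47.9 CPM with PDTLN1 and 52.1, 45.0 and 45.1 CPM in control cells, a log2 fold change of -0.12 (-0.38 to 0.14). Snrpg, named after its values were seen, had 41.9, 49.7 and 54.8 CPM with PDTLN1 and 58.3, 51.9 and 39.7 CPM in control cells. Snrpb shares much of its coding sequence with Snrpn, so how reads were divided between them is uncertain.

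The LSm ring holds the end of U6 RNA, and with Lsm1 in place of Lsm8 it acts in mRNA decay. Of its 8 genes, 6 had log2 fold changes above 0, with a median of 0.07, and none passed. Lsm3 had 79.1, 127 and 125 CPM with PDTLN1, against 126, 87.7 and 77.3 CPM in control cells, a log2 fold change of 0.19 with a standard error of 0.25. PDTLN1 1 lay with control 2 and 3, and control 1 with PDTLN1 2 and 3. Lsm6, named after its values were seen, showed the same arrangement, with 55.7, 83.5 and 76.9 CPM with PDTLN1 and 81.3, 61.0 and 62.7 CPM in control cells. Lsm8, the ring member that marks the U6 form, had 76.8, 53.8 and 80.6 CPM with PDTLN1 and 71.2, 62.2 and 52.6 CPM in control cells, a log2 fold change of 0.18 (-0.21 to 0.57). Lsm4 had 65.8, 65.3 and 64.9 CPM with PDTLN1 and 77.2, 62.6 and 66.2 CPM in control cells, a log2 fold change of -0.07 (-0.28 to 0.13), and here control 1 alone was high.

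**Figure D3:**
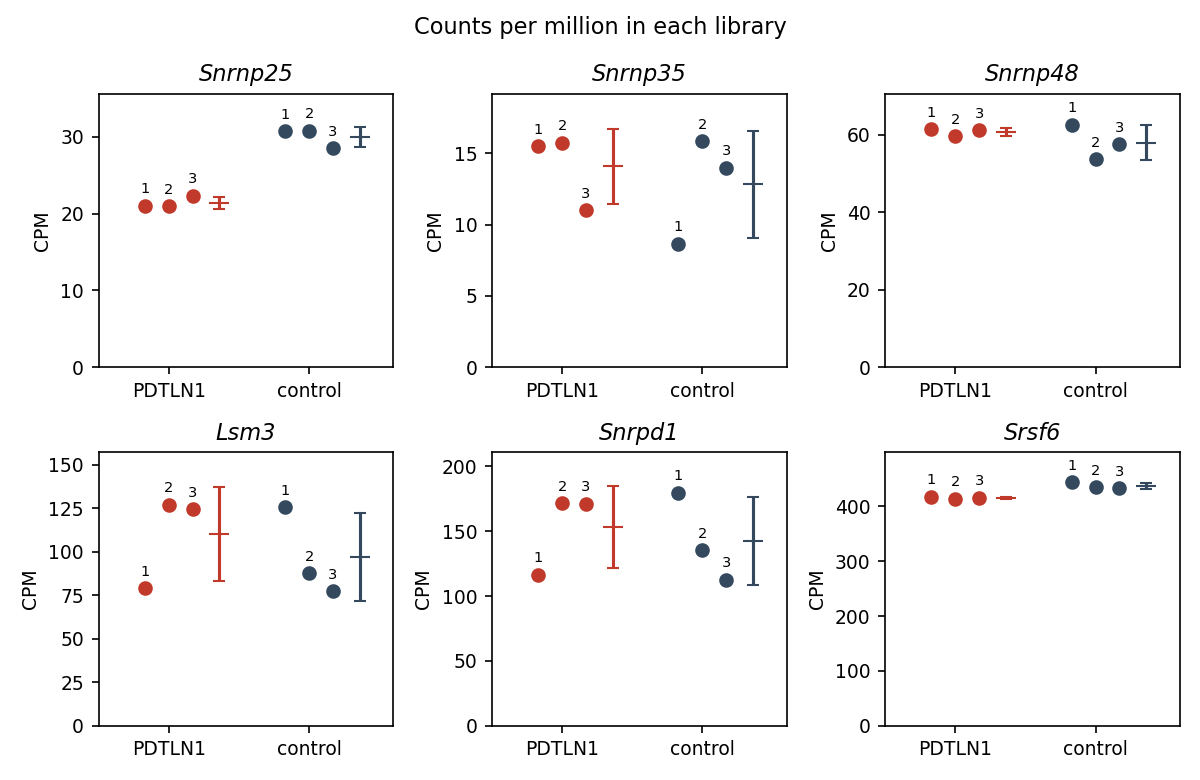
CPM of the 3 minor spliceosome members, Lsm3, Snrpd1 and Srsf6 in each library (points, numbered by library, PDTLN1 left of control; bars, mean ± SD, n = 3). The groups lie apart for Snrnp25 and, by a narrow gap, for Srsf6, while in Lsm3 and Snrpd1 PDTLN1 library 1 lies among the low values and control library 1 among the high ones.

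This arrangement of libraries reached beyond single genes. The first principal component of log2 CPM over all tested genes, which took 34.96% of the variance, placed PDTLN1 libraries 1, 2 and 3 at 18.3, -23.5 and -11.7, and control libraries 1, 2 and 3 at -17.0, 14.2 and 19.8. PDTLN1 1 thus stood with control 2 and 3. The mean deviation of the 7 Sm ring genes from their own 6-library means was -0.20, 0.02 and 0.12 log2 units in PDTLN1 libraries 1, 2 and 3, and 0.13, 0.02 and -0.10 in control libraries 1, 2 and 3. For the 8 LSm ring genes it was -0.09, 0.07 and 0.11 with PDTLN1 and 0.10, -0.04 and -0.14 in control cells. In both rings the spread within a group was wider than the difference between the groups. Over all 67 members, PDTLN1 1 was the lowest library for 19 (28.4%, beside 17.3% of all genes tested), and control 1 the highest for 19 (28.4%, beside 16.5%). Not all roles followed. PDTLN1 1 was also the highest library for 13 members (19.4%, beside 17.4% of all genes). Of these, 5 were among the 11 SR genes, with Srsf12 at 12 counts. The mean deviation of PDTLN1 1 was above 0 in the U1 genes (0.04, median 0.07) and the SR genes (0.03, median 0.026). It was also above 0, by little, in the 3′ splice site genes (0.010, median -0.0061) and the minor U11/U12 genes (0.0046, median 0.051). In the tri-snRNP genes its mean deviation was 0.015 but its median -0.047, with Prpf38b high at 168 CPM.

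Leaving out the libraries numbered 1, PDTLN1 1 and control 1 together, changed a call. In that comparison of 2 libraries against 2, edgeR called 91 genes (0.652% of 13949 tested, either direction) and 1 member, Lsm3 (log2 fold change 0.61, adjusted p 0.0233). Snrpd1 had 0.46 at an adjusted p of 0.0700. The unadjusted p was under 0.05 for Prpf18, Lsm3, Lsm6, Snrpd1 and Srsf3 with higher values and for Snrnp25 with lower values in PDTLN1 cells, 6 members of 67, where 17.4% of all genes reached it. The remaining libraries of the groups lie on opposite sides of the first principal component, so the treatment and that component cannot be told apart in it. With the component as a covariate over all 6 libraries, the log2 fold change was -0.01 for Lsm3 and -0.07 for Snrpd1, and 0 members passed.

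The promoters of Lsm3, Lsm6 and Srsf3 are shown as those of members with this arrangement of libraries. They are RefSeq windows on GRCm38.p6, cut and marked like that of Snrnp25: chr6:91515785-91516064 on the plus strand for Lsm3, chr8:78821123-78821402 on the minus strand for Lsm6 and chr17:29032410-29032689 on the plus strand for Srsf3.
Lsm3: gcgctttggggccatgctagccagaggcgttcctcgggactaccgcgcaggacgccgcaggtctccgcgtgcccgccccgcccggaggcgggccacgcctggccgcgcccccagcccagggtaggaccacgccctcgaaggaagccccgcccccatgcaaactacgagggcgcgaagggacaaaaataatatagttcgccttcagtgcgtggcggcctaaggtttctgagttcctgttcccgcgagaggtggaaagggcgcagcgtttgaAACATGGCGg
Lsm6: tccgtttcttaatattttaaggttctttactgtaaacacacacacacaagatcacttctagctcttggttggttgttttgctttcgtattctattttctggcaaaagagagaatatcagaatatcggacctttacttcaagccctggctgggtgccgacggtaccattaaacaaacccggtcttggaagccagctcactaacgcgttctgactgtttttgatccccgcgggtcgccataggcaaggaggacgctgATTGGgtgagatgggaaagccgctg
Srsf3: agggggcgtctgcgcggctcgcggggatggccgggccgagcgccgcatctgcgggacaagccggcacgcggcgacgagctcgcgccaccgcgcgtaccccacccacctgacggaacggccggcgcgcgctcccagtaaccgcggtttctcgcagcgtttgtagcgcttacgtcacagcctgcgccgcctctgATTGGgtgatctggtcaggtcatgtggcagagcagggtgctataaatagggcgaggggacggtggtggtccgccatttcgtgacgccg
Lsm3 holds a YY1 site at 21, Lsm6 an NFY box at 6 and Srsf3 an NFY box at -58. No marked motif is shared by all of Lsm3, Lsm6 and Srsf3. Not in capitals are SP1 sites at -178, -173 and -104 in Lsm3 and a TATA box (TATAAA) at -18 in Srsf3. Lsm6 has an SP1 site at 35, past the bases shown.

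RefSeq windows from 250 bases before to 50 after the start were found for 56 of the 67 members, 67 windows in all with alternative starts. The ETS site stood in 35.8% of member windows, beside 11.6% of 21263 windows of coding genes, and the NRF1 site in 26.9% beside 5.54%. The SP1 site stood in 70.1% beside 46.2%, and the YY1 site in 8.96% beside 3.12%. The NFY box was as frequent in members, at 38.8%, as in coding genes, at 38.2%. The E-box stood in 8.96% beside 7.84%, the CRE in 4.48% beside 2.23% and the TATA box (TATAAA) in 7.46% beside 12.6%. The ATF4 composite site (TGATGNAA) and the ZNF143 core (ACTACAATT) were in 0 member windows, beside 3.6% and 0.508% of coding windows. Median GC content was 59.0% in member windows and 56.33% in coding windows. The coding windows were not limited to genes expressed in P19 cells, while all members passed the filter on low counts. Such matches describe the sequence and show no binding, and the part of GC content or of expression in these shares was not tested.

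Among the genes of the U1 and U2 particles, 0 of 6 and 0 of 11 passed. Snrpa, the U1 protein that binds a loop of U1 RNA, had 125, 104 and 112 CPM with PDTLN1 and 118, 120 and 122 CPM in control cells, a log2 fold change of -0.08 (-0.25 to 0.10). Snrpa1, the U2 protein that holds a leucine-rich repeat, had 95.3, 104.6 and 103.1 CPM with PDTLN1 and 105.5, 109.5 and 106.6 CPM in control cells. Every PDTLN1 value of Snrpa1 lay under every control value, by a narrow margin, at a log2 fold change of -0.09 (-0.23 to 0.06). Sf3b2, part of the complex that clamps the branch point, had 740, 689 and 657 CPM with PDTLN1 and 689, 721 and 719 CPM in control cells, a log2 fold change of -0.03 (-0.16 to 0.10). Sf3b4, of the same complex, had 109, 125 and 111 CPM with PDTLN1 and 109, 98.3 and 116 CPM in control cells, a log2 fold change of 0.09 (-0.10 to 0.29).

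The 3′ splice site is read by the U2AF pair. U2af2, which binds the polypyrimidine tract, had 325, 338 and 321 CPM with PDTLN1 and 340, 334 and 329 CPM in control cells, a log2 fold change of -0.03 (-0.14 to 0.08). U2af1, which reads the AG at the end of the intron, had 62.4, 61.0 and 61.5 CPM with PDTLN1 and 62.6, 53.4 and 58.5 CPM in control cells, a log2 fold change of 0.08 (-0.10 to 0.27). Both overlapped between the groups.

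Of the 10 tri-snRNP genes, 7 had log2 fold changes above 0, with a median of 0.03. Prpf3, a U4/U6 protein, had 126, 117 and 116 CPM with PDTLN1 and 110, 113 and 112 CPM in control cells, without overlap, at a log2 fold change of 0.10 (-0.04 to 0.24). Prpf8 had 1688, 1724 and 1590.0 CPM with PDTLN1 and 1570.1, 1701 and 1675 CPM in control cells, a log2 fold change of 0.02 (-0.11 to 0.14). Prpf38b, a relative of the tri-snRNP protein Prpf38a, had 168, 131 and 113 CPM with PDTLN1 and 99.3, 133 and 116 CPM in control cells. Its log2 fold change of 0.24 (-0.14 to 0.63) came with a high PDTLN1 1 and a low control 1, and was -0.03 without these 2 libraries. Prpf4b, the kinase that phosphorylates tri-snRNP proteins, had 244, 246 and 251 CPM with PDTLN1 and 236, 236 and 235 CPM in control cells. The groups did not overlap, and the difference was small, with a log2 fold change of 0.06 (-0.04 to 0.17).

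The SR genes were split, with 5 of 11 below 0 and 6 above. Srsf6 had 417, 414 and 416 CPM with PDTLN1 and 444, 435 and 433 CPM in control cells, without overlap, a log2 fold change of -0.07 (-0.18 to 0.03). Srsf5 had 276, 282 and 273 CPM with PDTLN1 and 265, 272 and 258 CPM in control cells, also without overlap and in the opposite direction, at 0.06 (-0.05 to 0.18). Both are SR proteins with a pair of RNA recognition motifs, and neither passed, at an edgeR adjusted p of 0.989. Srsf3, the smallest SR protein and one that also serves mRNA export, had 403, 487 and 512 CPM with PDTLN1 and 522, 433 and 431 CPM in control cells, the arrangement of libraries seen in Lsm3; it was named after its values were seen. Srsf7 had 206, 209 and 238 CPM with PDTLN1 and 231, 220.3 and 205 CPM in control cells, a log2 fold change of -0.01 (-0.17 to 0.16). Srsf12, the least expressed member, had 12, 11 and 10 counts with PDTLN1 and 6, 6 and 11 counts in control cells, and its log2 fold change of 0.46 had an interval of -0.43 to 1.35.

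**Figure D4:**
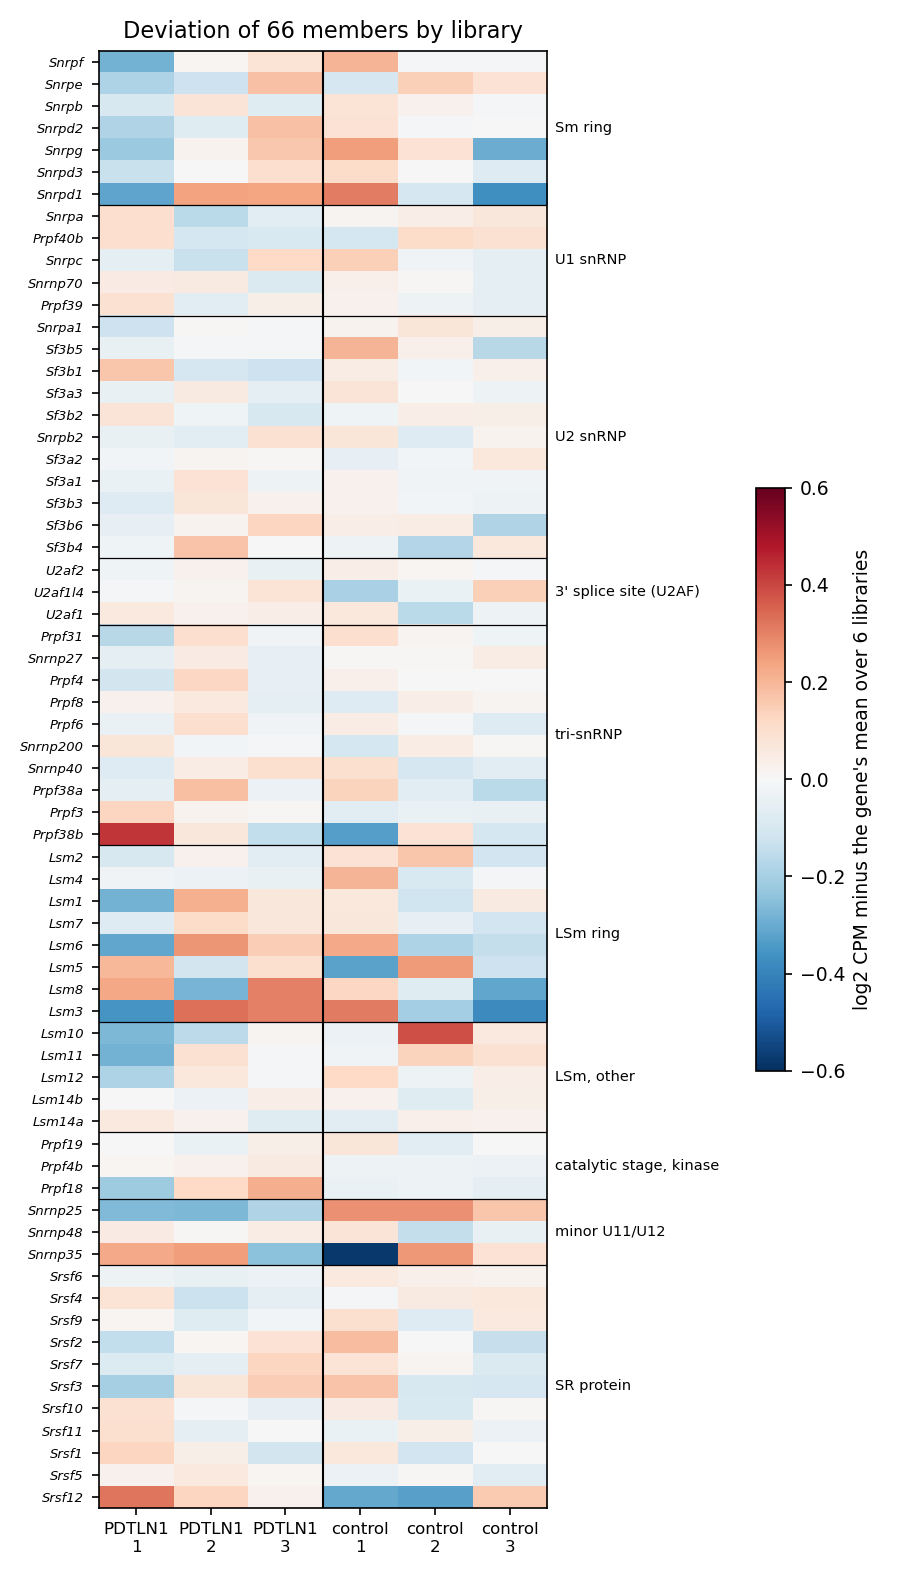
Deviation of 66 of the 67 members (rows, by role) from its own 6-library mean of log2 CPM, in log2 units, for PDTLN1 libraries (left) and control libraries (right). PDTLN1 library 1 lies under the gene's mean in each of the 7 Sm ring genes, and Snrnp25 has the deepest contrast among the rows whose groups do not overlap.

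Among LSm genes outside the spliceosome ring, Lsm10 and Lsm11 belong to the U7 snRNP, which processes histone mRNA. Lsm10 had 7.84, 8.52 and 9.65 CPM with PDTLN1 and 9.31, 12.7 and 9.95 CPM in control cells, a log2 fold change of -0.29 (-0.68 to 0.09). Lsm11 had 24.4, 31.8 and 29.6 CPM with PDTLN1 and 29.4, 32.7 and 31.8 CPM in control cells, a log2 fold change of -0.13 (-0.40 to 0.14). Lsm12 had 116, 138 and 131 CPM with PDTLN1 and 143, 129 and 136 CPM in control cells, a log2 fold change of -0.09 (-0.26 to 0.09). PDTLN1 1 was the lowest library in each of these 3 genes, and the groups overlapped in each.

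Other splicing genes were taken by lists, 144 tested in all with the minor spliceosome proteins above, and edgeR and DESeq2 each called 0 of them. At an unadjusted p of 0.05 edgeR had 1 lower and 3 higher, 2.78% of the 144 beside 3.99% of all genes tested. DESeq2 had as many in each direction, beside 1.83% of all its genes. The median log2 fold change was -0.01 for 18 genes of the Prp19 complex and its partners, 0.03 for 12 helicases, 0.01 for 20 further snRNP proteins, 0.01 for 16 assembly and import factors and -0.04 for 8 tested of 9 SR kinases and importers. It was 0.03 for 18 SR-related proteins, -0.01 for 28 hnRNP proteins and 0.06 for 15 genes of the exon junction complex and nonsense-mediated decay.

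Among these genes Rsrc1, an SR-related protein, had the smallest p. It averaged 40.4 ± 1.66 CPM with PDTLN1 and 29.1 ± 6.78 CPM in control cells, without overlap, at a log2 fold change of 0.47 and an edgeR adjusted p of 0.989. Sfswap, of the same list, had a log2 fold change of 0.29. Ddx23, the helicase of U5, averaged 234 ± 6.18 CPM with PDTLN1 and 212 ± 10.3 CPM in control cells, a log2 fold change of 0.14, and the helicase Ddx46 had one of 0.10. Hnrnph1, a binder of G-rich RNA, averaged 561 ± 49.8 CPM with PDTLN1 and 644 ± 58.5 CPM in control cells, a log2 fold change of -0.20, and the poly(C) binder Pcbp2 had one of -0.10. Smg1, the kinase of nonsense-mediated decay, averaged 355 ± 19.4 CPM with PDTLN1 and 317 ± 17.6 CPM in control cells, a log2 fold change of 0.16, and its partner Upf2 had one of 0.15. Clk1, a kinase of SR proteins, averaged 110.4 ± 24.9 CPM with PDTLN1 and 127 ± 21.1 CPM in control cells, a log2 fold change of -0.21 (-0.65 to 0.23), and the SR importer Tnpo3 had one of 0.08. In the remaining lists the genes with the smallest p were Slu7 (0.16) and Puf60 (-0.09) among snRNP proteins, Cdc5l (0.12) and Xab2 (-0.09) in the Prp19 list, and Gemin2 (-0.13) and Coil (-0.07), which act in snRNP assembly and Cajal bodies. None of these genes passed.

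Some counts are uncertain by position. The treatment of strand in counting is not given in the sources used here, and exons of 17 members overlap exons of other genes, over more than 10% of their bases in 7. After Snrpf, the widest are U2af1l4, with 65.6% shared with Gm49396 on the same strand, and Srsf4, with 43.0% shared with Gm12992 on the other strand. Within the shared bases, reads of a partner on the same strand cannot be told apart from those of the member. For a partner on the other strand this holds only if counting ignored strand.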

How the data were processed

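Libraries of P19 RNA came from a TruSeq kit of Illumina, per the labels' protocols. The authors deposited whole-number counts for each gene, without normalization, and FPKM, the same counts divided by a gene length and the library total, per the file headers and values. Per the submitters' processing notes, Bowtie 0.12.2 and the builds mm8 and mm9 were named with no role; not given in the sources used here are the counter, how it treated strand and multiple matches, and the annotation. Positions equalled GENCODE M21 (GRCm38) for 52 of 67 members, and lengths of merged exons came from it.

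Counts were tested with edgeR 4.0.16 in R 4.3.3 on all 6 libraries: filterByExpr, TMM, glmQLFit with robust estimation, glmQLFTest, two-sided, Benjamini-Hochberg over 13836 genes, threshold 0.05. The code was tested on simulated data. Intervals are the fold change with its standard error, and cover the spread between libraries. CPM use TMM-scaled library sizes, with a pseudocount of 0.5 on the log2 scale. The members and lists were chosen with earlier results of these data known, so no list was tested. Named members are the 6 smallest p per direction, the highest FPKM and the smallest p of each role, and the 5 with the largest SD over libraries. A few others are said to be named after their values were seen. Srsf2, Snrpb, Snrnp200, U2af1l4, Lsm1, Srsf4 and Prpf18 also lie outside this rule, and were named for their level, length, exon overlap or unadjusted p. From other lists, up to 2 genes with the smallest p are named. Alternatives were a replicate block, leaving out libraries, DESeq2 1.42.0, other scaling, filters and thresholds, and the first principal component as a covariate. Merged exon lengths were chosen after seeing the data. A gene that the naming rule picked is not reported here by name, and it stays in the counts over members.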

Additional observations from a re-analysis of the deposited data

How the results depend on the processing

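The number of members that passed stayed at 0 in every alternative but 1: with both libraries numbered 1 left out it was 1 (Lsm3, log2 fold change 0.61). In that comparison the log2 fold change changed sign for 24 of the 67 members, among those chosen by the naming rule Lsm12 (0.017), Lsm4 (0.012), Prpf38b (-0.032), Prpf8 (-0.029), Snrnp35 (-0.16), Snrpf (0.052) and Srsf7 (0.072). With the first principal component as a covariate it changed sign for 10 members, among those chosen by the rule Lsm3 (-0.013) and Snrpd1 (-0.067). Leaving out 1 library at a time changed the sign of 6 to 16 members, and among the members chosen by the naming rule gave ranges across 0 for Lsm4 (-0.13 to 0.019), Prpf8 (-0.018 to 0.050), Sf3b2 (-0.077 to 0.011), Snrnp35 (-0.085 to 0.31), Snrpd1 (-0.041 to 0.30) and Srsf7 (-0.074 to 0.035). None of the named members passed in the comparison of all 6 libraries, and the cause was not tested. Snrnp25 was lower in PDTLN1 cells under every alternative run.

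When the replicate number entered as a block, the number of members called was 0 and the log2 fold change of Snrnp25 was -0.49 at an edgeR adjusted p of 1.00. The labels give the replicate numbers no shared source, and the deviations of same-numbered libraries from their group means correlated at -0.38, -0.15 and -0.12 across genes, so the numbers were not taken as pairs. The block changed no call of a member. With 3 libraries a group, depth limits Srsf12 most, at 6 to 12 counts a library.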
